A study of Artemia parthenogenetic lineage with 3 samples.

Results

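Gene desert peaks are the accessible regions that lay more than 100 kb from the start of the nearest gene and more than 1 kb outside every listed gene. They were chosen by position alone: a member had an absolute distance above 100 kb to the nearest start, and it overlapped no gene of the list after each gene had been extended by 1 kb on both sides. Of the 108316 merged peaks in the series, 15562 met this rule, which is 14.4% (exact 95% interval 14.16 to 14.58). The peaks were measured by ATAC-seq, in which the Tn5 transposase cuts open chromatin and leaves sequencing adapters there, so that reads pile up where DNA is accessible. The series holds 1 group, ArR_30min, made of 3 libraries (replicates 1, 2 and 3) from wild-type cysts of an *Artemia* parthenogenetic lineage. The cysts came from Ebinur Lake, were dried and chilled to break diapause, and represent 30 min after embryonic diapause termination (EDT), with rehydration and reactivation in artificial seawater under constant light. The study calls the libraries biological replicates and its cysts 1 batch, and each library mixes all cells of whole cysts. Reads were placed on the genome of a related species, *Artemia franciscana*.

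*Artemia*, the brine shrimp, packs a gastrula-stage embryo into a cyst whose metabolism nearly stops in diapause and restarts after EDT. Gene deserts are long stretches of a genome without annotated genes. In vertebrates and flies some of them hold enhancers, elements that raise the transcription of a gene far away on the same chromosome, and others appear to be dispensable. Accessible sites in a desert can also be insulators, origins of replication, unannotated promoters or repeats, and ATAC-seq alone does not tell these apart. An assigned gene below is only the gene with the nearest start, and no link between a peak and that gene was measured.

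The stretches were gene-free as far as the listed genes show, which are those nearest to at least 1 peak. For all 108316 peaks the assigned start was the nearest of the 12002 listed starts on the same contig. The median member lay 160 kb from that start (quartiles 124 and 223 kb) and 122 kb from the edge of any listed gene (quartiles 74.3 and 180 kb). Members past the gene, on the downstream side of the start, numbered 9202 (59.1%), and 6360 (40.9%) lay upstream. Of all members, 10336 were more than 100 kb from any gene edge and 481 lay within 10 kb of one. The members fell on 1244 contigs and covered 6.19 Mb.

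The desert label had a limit set by the assembly. Only 7682 members (49.4%) had a listed gene on both sides of their contig. The other 7880 lay between the outermost listed gene and the end of the contig, where a gene on the next piece of the chromosome would not be seen. Among gene-free peaks at 20 to 100 kb from a start, which meet the same rule but for the distance, 20387 of 28075 (72.6%) had genes on both sides. Members therefore lay at contig ends more often than nearer gene-free peaks did, and the main values below are also given by position.

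A few members were far stronger than the rest. Signal is given in RPM, reads scaled to a total of 1e6 per library, and the 3 libraries held 53022269, 56882821 and 82440231 reads in replicates 1, 2 and 3. The strongest member, at 359431 to 360489 of contig ctg421, had 165, 137 and 135 RPM in replicates 1, 2 and 3 (146 ± 16.6, SD, n = 3). It lay 210 kb past the start of evm.TU.ctg421.7 and 128 kb from any gene edge. This was the only one of the 10 strongest members with listed genes on both sides. A pair followed on ctg532, at 998986 to 999909 with 159, 127 and 150 RPM and at 1007419 to 1008456 with 151, 121 and 133 RPM. Both lay past evm.TU.ctg532.16, at 161 and 169 kb from its start, and 7.51 kb separated them.

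Several of the next strongest members shared a contig as well. On ctg239, the peak at 7558 to 9057 had 89.0, 65.0 and 66.3 RPM in replicates 1, 2 and 3, and the peak at 36381 to 38477 had 28.2, 27.5 and 26.2 RPM, both past evm.TU.ctg239.2. On ctg587, the peaks at 1066202 to 1067951 and 1137899 to 1139190 had means of 51.4 ± 5.03 and 37.4 ± 0.760 RPM (SD, n = 3), at 291 and 362 kb past the start of evm.TU.ctg587.15. On ctg155, the peaks at 62305 to 63692 and 60761 to 61886 had 46.2 ± 8.20 and 33.6 ± 6.39 RPM (SD, n = 3) and stood 418 bp apart, about 310 kb upstream of evm.TU.ctg155.4. Replicate 1 was the highest library at 8 of the 10 strongest members, and replicates 2 and 3 were each the highest at 1. The exceptions were the second ctg587 peak and the widest member, at 184884 to 188604 of ctg1313, with 27.7, 32.1 and 30.9 RPM. Replicate 1 was the highest library at 59.0% of the 83 members with a mean of at least 10 RPM. It was the highest at 30.8% of all members and 36.6% of all peaks. The 10 strongest members lay on 6 contigs and took 4.94%, 4.18% and 4.29% of the reads in all members in replicates 1, 2 and 3.

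**Figure D1:**
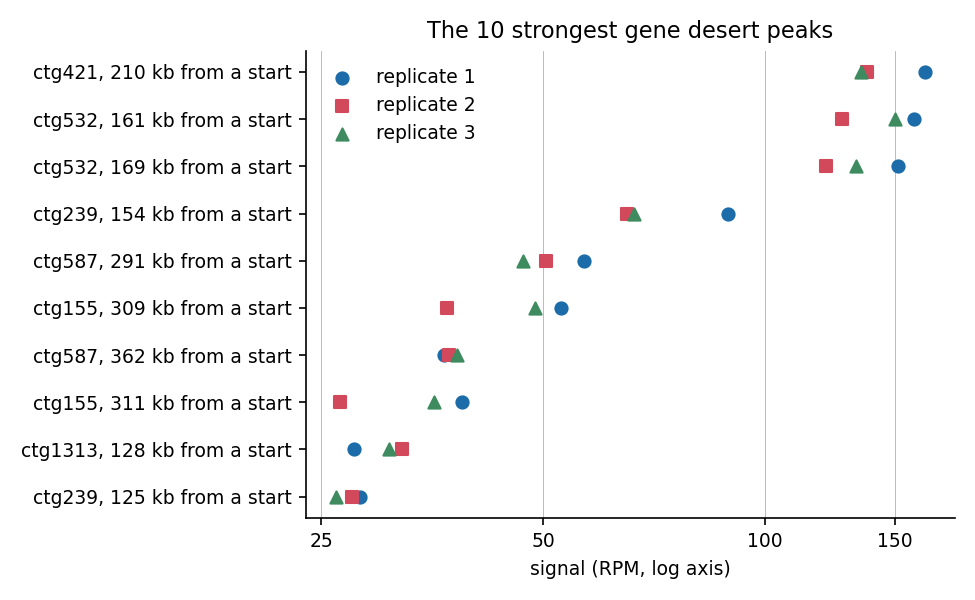
Signal of the 10 strongest gene desert peaks in each of the 3 libraries, in RPM on a log axis, with the contig and the distance to the nearest listed gene start on the left. The 3 strongest peaks lie between 121 and 165 RPM in every library. Replicate 1 is the highest library at 8 of the 10, against 30.8% of all members and 36.6% of all peaks.

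Strong members were few and sat mainly at contig ends. Members with a mean of at least 10 RPM numbered 83 (0.533%), against 0.373% of all merged peaks. Of these, 71 lay at a contig end and only 12 had listed genes on both sides. At fixed position the share of such peaks was not above that of nearer gene-free peaks. It was 0.901% of members and 0.937% of peaks at 20 to 100 kb at contig ends, and 0.156% of members and 0.280% of peaks at 20 to 100 kb between genes. They came from 50 contigs, and 45 of them had another such member within 50 kb. They took 11.8%, 10.5% and 10.7% of the reads in members in replicates 1, 2 and 3. They had a median width of 1365 bp and a median of 16 summits (local maxima that the peak caller listed). Of the 83, 15 lay within 10 kb of the start of a contig or of its last listed position (18.1%), against 9.91% of all members. Under the distance rule every such member lies at a contig end. Among members at contig ends it was 15 of 71 strong ones, against 1542 of all 7880, which are similar shares.

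Most members were weak. The median member had 0.622, 0.650 and 0.667 RPM in replicates 1, 2 and 3, or 0.647 ± 0.0226 RPM (SD, n = 3), which corresponds to 32, 36 and 54 reads. The middle 50% of members had means of 0.444 to 1.06 RPM, the strongest 5% exceeded 2.87 RPM and the strongest 1% exceeded 6.58 RPM. A mean below 0.5 RPM was found for 33.2% of members (29.3% at contig ends and 37.1% between genes), against 28% of all peaks, and a mean of at least 2 RPM for 9.28%, against 10.3% of all peaks. The weakest member, at 453511 to 453722 of ctg890, had 0.0377, 0.141 and 0.0970 RPM. Members held 13.4%, 14.2% and 14.0% of all reads in peaks in replicates 1, 2 and 3 (13.8% ± 0.424, SD, n = 3), close to their 14.4% of peaks and 14.3% of the bases in peaks.

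Signal at gene desert peaks was slightly lower than at nearer gene-free peaks. The median was 0.647 ± 0.0226 RPM for members and 0.677 ± 0.0231 RPM at 20 to 100 kb (SD, n = 3). Medians of 32, 36 and 54 reads for members stood against 34, 37 and 57 reads for the nearer peaks in replicates 1, 2 and 3, so the difference was 1 to 3 reads. Differences between classes were taken between medians of log2(RPM + 0.0691), with a pseudocount of 0.1 times the median RPM. The difference of members from nearer peaks was -0.08, -0.03 and -0.07, a mean of -0.06 ± 0.02 (SD, n = 3). All 3 libraries showed this direction, and the mean was larger than the spread between them. A two-sided exact permutation test that flips the signs of the 3 differences returned p = 0.25. With 3 libraries no smaller value can occur, so no comparison of this kind could pass 0.05. The difference was larger once position on the contig was fixed. It was -0.09 ± 0.03 where both classes had genes on both sides and -0.13 ± 0.03 where both lay at contig ends (SD, n = 3, exact sign-flip p = 0.25 for each).

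Peaks over a gene start were much stronger than gene desert peaks. The median was 0.647 ± 0.0226 RPM for members and 1.85 ± 0.347 RPM for the 3126 start peaks, and the log2 difference of members from them was -1.74, -1.20 and -1.29 in replicates 1, 2 and 3 (-1.41 ± 0.29, SD, n = 3, exact sign-flip p = 0.25). In RPM per kb it was -0.50 ± 0.28. Members had a median width of 315 bp, against 639 bp for start peaks. Against all 92754 other peaks, the difference was -0.15, -0.07 and -0.11, a mean of -0.11 ± 0.04 (SD, n = 3, exact sign-flip p = 0.25). With genes on both sides, members differed from all other peaks by -0.20 ± 0.03. At contig ends the libraries took no common direction (-0.04, 0.03 and 0.00 in replicates 1, 2 and 3). The p-values of the 6 comparisons in this family, these 3 in RPM and in RPM per kb, were each 0.25 after Benjamini-Hochberg adjustment.

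**Figure D2:**
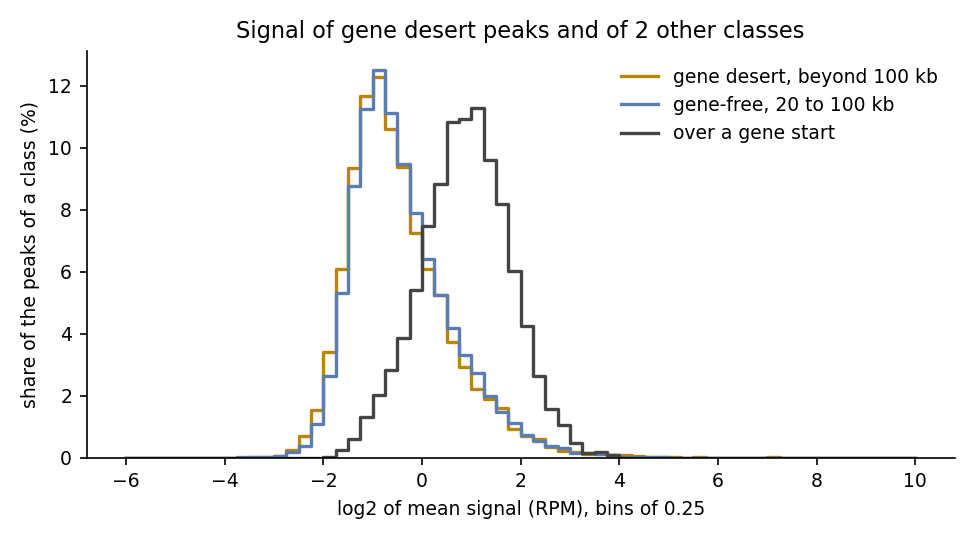
Distribution of the mean signal over the 3 libraries, as log2 RPM in bins of 0.25, for gene desert peaks, gene-free peaks 20 to 100 kb from a start and peaks over a gene start, each as a percent of its class. The first 2 curves nearly coincide, with medians of this mean of 0.639 and 0.667 RPM, and start peaks are shifted to a median of 1.87 RPM.

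Over all members, median signal changed little with distance up to 500 kb. Within each position on the contig it was lower beyond 300 kb than at 100 to 150 kb. The pooled median was 0.651 ± 0.0285 RPM at 100 to 150 kb (6836 members), 0.641 ± 0.0234 RPM at 150 to 200 kb (3767), 0.655 ± 0.0347 RPM at 200 to 300 kb (3134) and 0.631 ± 0.0258 RPM at 300 to 500 kb (1517; SD, n = 3 in each case). Beyond 500 kb, 308 members had a median of 0.585, 0.580 and 0.619 RPM in replicates 1, 2 and 3 (0.594 ± 0.0210), and only 3 of these members had listed genes on both sides. The share of members with genes on both sides was 59.6% at 100 to 150 kb and 25.8% at 300 to 500 kb, so the bins differ in position as well. At contig ends alone, members beyond 500 kb had 0.594 ± 0.0210 RPM and members at 300 to 500 kb had 0.651 ± 0.0285 RPM, against 0.725 ± 0.0239 RPM at 100 to 150 kb (SD, n = 3). All 3 libraries had this order. Between genes, members at 300 to 500 kb had 0.547, 0.598 and 0.582 RPM in replicates 1, 2 and 3, against 0.585, 0.615 and 0.643 RPM at 100 to 150 kb, which is lower in each library. The bins in between did not fall in order. Medians at 150 to 200 and 200 to 300 kb were 0.710 and 0.713 RPM at contig ends, and 0.588 and 0.594 RPM between genes. Median width at contig ends was 335 bp at 100 to 150 kb, 316 bp at 300 to 500 kb and 307 bp beyond 500 kb. Whether width accounts for the lower signal was not tested. Across the 15562 members, Spearman's coefficient between distance and mean signal was -0.0152 (-0.0558 at contig ends and -0.0356 between genes), and that between width and signal was 0.777. These are correlations across peaks of the same libraries and are given as a description.

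**Figure D3:**
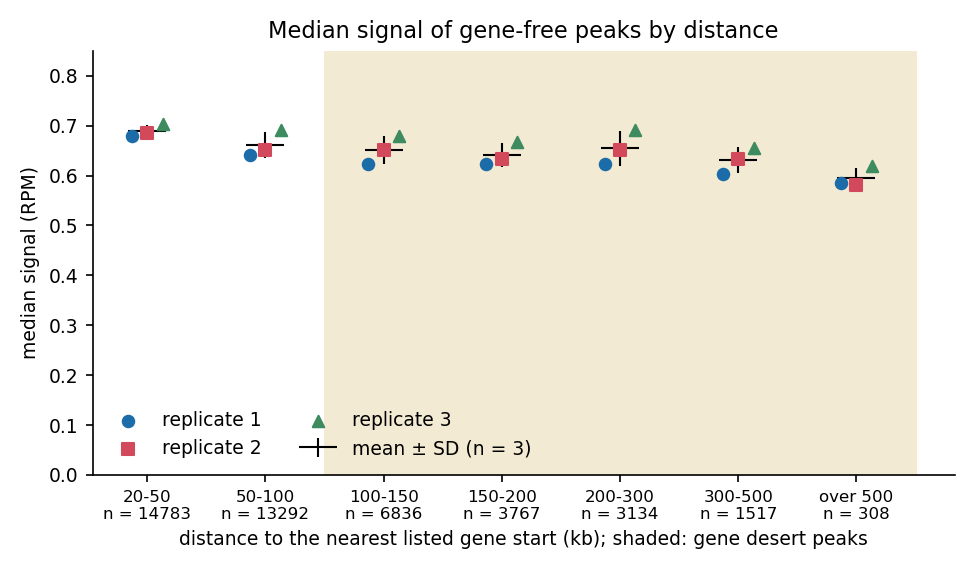
Median signal in RPM of gene-free peaks by distance to the nearest listed gene start in kb, with gene desert peaks shaded, 1 symbol per library and the mean ± SD over the 3 libraries. Both positions on the contig are pooled, medians run between 0.594 and 0.689 RPM with no step at 100 kb, and replicate 3 is the highest library in each bin.

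The rule's limit of 100 kb coincided with no step in signal, since gene-free peaks at 50 to 100 kb had a median of 0.661 ± 0.0267 RPM. The 3 members just beyond it lay at 100.001 kb (1379941 to 1380307 of ctg268), 100.006 kb (10926 to 11160 of ctg247) and 100.018 kb (244504 to 244703 of ctg107), with means of 1.07, 0.483 and 0.575 RPM. The 3 gene-free peaks just inside it lay at 99.999 kb (28170 to 28595 of ctg1287), 99.998 kb (2381623 to 2381876 of ctg124) and 99.992 kb (118475 to 118674 of ctg923), with 0.572, 0.424 and 0.331 RPM. The farthest members lay on ctg626, past evm.TU.ctg626.8. The peak at 9687 to 9886, 1031308 bp from the start, had 0.189, 0.281 and 0.218 RPM, the peak at 45447 to 45646 had 0.415, 0.229 and 0.449 RPM, and the peak at 46341 to 46644 had 0.622, 0.440 and 0.461 RPM. Next were 2 peaks at the end of ctg248, past evm.TU.ctg248.7, of which the one at 1312222 to 1312956 lay 965 kb away and had 1.77, 1.48 and 1.08 RPM, and the one at 1311563 to 1311762 had 0.536 ± 0.127 RPM (SD, n = 3). All 5 lay at contig ends.

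Members at contig ends were stronger than members between genes. The median was 0.679, 0.703 and 0.728 RPM at contig ends in replicates 1, 2 and 3, against 0.585, 0.598 and 0.631 RPM between genes. The difference was 0.19, 0.21 and 0.19 on the log2 scale, a mean of 0.20 ± 0.01 (SD, n = 3, exact sign-flip p = 0.25), which is 1.15-fold and well above the spread between libraries. It was 0.12 ± 0.02 per kb of width and 0.14 ± 0.01 within bins of peak width, split at the quartiles of all peaks (234, 317 and 466 bp). Peaks within a bin still differ in width, most of all above 466 bp, so width was only partly held. Means of at least 2 RPM were found for 990 of 7880 members at contig ends (12.6%) and 454 of 7682 between genes (5.91%). Nearer gene-free peaks reached 2 RPM more often at each position. Taken per library, the share at contig ends was 12.6% ± 0.287 of members and 15.1% ± 0.597 of peaks at 20 to 100 kb. Between genes it was 6.04% ± 0.490 and 8.10% ± 0.926 (SD, n = 3). Members had the lower share in each library at both positions. The contrast between contig ends and positions between genes was also present in gene-free peaks at 20 to 100 kb. There it was 0.24 ± 0.02 on the log2 scale (SD, n = 3, exact sign-flip p = 0.25), and within width bins it was 0.14 in both classes. What else differs between contig ends and the rest of the assembly was not tested.

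**Figure D4:**
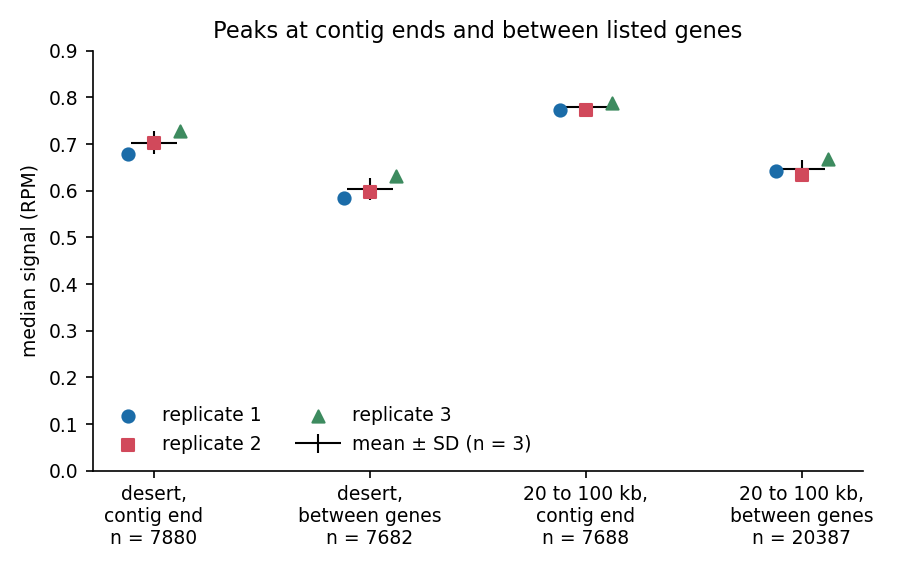
Median signal in RPM of gene desert peaks and of gene-free peaks 20 to 100 kb from a start, each at contig ends and between listed genes, with 1 symbol per library and the mean ± SD (n = 3). In each class the contig-end medians lie above the between-gene medians in all 3 libraries, and in each position desert medians lie below those at 20 to 100 kb.

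Signal varied with width and summit number. The median width was 315 bp (quartiles 232 and 464 bp), and 12.7% of members had the smallest width in the table, 200 bp. A single summit was listed for 54.8% of members, and these had a median of 0.465 ± 0.0272 RPM (SD, n = 3). Members with 2 to 5 summits had 0.906 ± 0.0251 RPM, and the 1738 with 6 or more had 2.37 ± 0.0491 RPM. Of the 83 members of at least 10 RPM, 82 had 6 or more summits and none had 1. The share with 6 or more summits was 11.2% among members (14.5% at contig ends and 7.76% between genes) and 10.7% among all peaks. Since a wider peak collects more reads and more summits, these measures are not independent. The 5 widest members measured 3721 bp (ctg1313, described above), 3236 bp (169857 to 173092 of ctg1638, 19.9 ± 0.955 RPM), 3212 bp (622874 to 626085 of ctg748, 8.27 ± 1.13 RPM), 2997 bp (392931 to 395927 of ctg49, 16.4 ± 1.66 RPM) and 2957 bp (241243 to 244199 of ctg49, 11.99 ± 0.423 RPM; SD, n = 3 in each case). The ctg49 pair belonged to 1 desert.

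With deserts defined by the listed genes, peaks per Mb were somewhat fewer in deserts than in the rest of the contigs. Desert sequence, all bases that meet the distance and gene rule up to the last listed position of each contig, measured 270 Mb, or 17.1% of the 1583 Mb spanned by the contigs. It held 57.6 peaks per Mb, against 63.2 per Mb in gene-free sequence at 20 to 100 kb and 74.2 per Mb inside genes. Genes nearest to no peak are not listed, and their sequence counts as gene-free here. This selection by peaks can raise the density inside genes and lower it in deserts, and its size was not tested. Between listed genes the densities were 53.8 per Mb in deserts and 59.6 per Mb at 20 to 100 kb. Summed signal was 61.4, 59.5 and 61.9 RPM per Mb of desert in replicates 1, 2 and 3, against 73.2, 69.3 and 72.1 RPM per Mb at 20 to 100 kb. Deserts were lower in each library, and the values did not overlap. The median gap from a member to the nearest other peak was 3494 bp, 29.9% of members had a neighbour within 1 kb, and 1485 members (9.54%) were more than 20 kb from any other peak. At 20 to 100 kb the median gap was 3356 bp and 7.73% were that isolated. Over all peaks the median gap was 3560 bp, 29.8% had a neighbour within 1 kb and 6.75% were more than 20 kb from any other. The typical gap of a member was therefore no wider than that of all peaks, and isolated peaks were more frequent among members.

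The members lay in 2151 gene-free stretches with a median length of 187 kb (quartiles 116 and 275 kb). A median stretch held 5 members (quartiles 2 and 10), and 356 stretches held 1. At the other extreme, 140 stretches with at least 20 members held 27.1% of all members. The stretch with the most lay at 1 to 647307 of ctg1227, up to evm.TU.ctg1227.2, and held 89. It was followed by stretches with 60 members each at 52781 to 579278 of ctg2224 and 1 to 515654 of ctg49, with 54 at 442161 to 1312956 of ctg248, and with 53 at 1 to 540007 of ctg424. The longest stretches were mostly others. The longest, 940 kb between genes of ctg797 (186187 to 1125778), held 49 members. The next were 912 kb at the start of ctg626 (1 to 911677) with 36 members, 876 kb between genes of ctg543 (183030 to 1058744) with 52, the 871 kb of ctg248 already named, and 868 kb between genes of ctg264 (361349 to 1229633) with 33.

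The median signal of a desert varied, and replicates gave similar medians for the same desert. Among the 140 stretches with at least 20 members, the median member of a stretch ran from 0.422 to 2.66 RPM (quartiles 0.568 and 0.994 RPM). The most accessible was the end of ctg1682 (347506 to 610667), where 32 members had a median of 2.86, 2.61 and 2.51 RPM in replicates 1, 2 and 3. Next came the starts of ctg1254 (1 to 207368, 26 members) with 2.07, 1.99 and 1.98 RPM and of ctg1033 (1 to 322445, 51 members) with 2.13, 1.81 and 1.84 RPM. The least accessible were the end of ctg134 (1385864 to 2079256, 24 members) with 0.387, 0.413 and 0.467 RPM, the longest stretch, on ctg797, with 0.377, 0.492 and 0.437 RPM, and the start of ctg327 (1 to 544573, 23 members) with 0.453, 0.440 and 0.425 RPM. These 6 stretches were chosen for their medians, which are given as a description. Pearson's r of the medians across the 140 stretches was 0.940, 0.956 and 0.969 for replicates 1 and 2, 1 and 3, and 2 and 3, and 0.830, 0.885 and 0.920 across the 67 between genes, as a description, since stretches share libraries. A median above 1 RPM was found in 28 of 73 stretches at contig ends and 4 of 67 between genes.

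The members were nearest to 2636 of the 12002 listed genes, with a median of 4 per gene. The 10 genes with the most members were evm.TU.ctg1227.2 (89), evm.TU.ctg49.7 (60), evm.TU.ctg424.7 (55), evm.TU.ctg248.7 (54), evm.TU.ctg1033.5 and evm.TU.ctg1737.1 (51 each), evm.TU.ctg326.4 (48), evm.TU.ctg1480.4 (47), evm.TU.ctg510.27 (42) and evm.TU.ctg527.15 (41). One of these, evm.TU.ctg248.7, carries the study's annotation of metalloendopeptidase activity, the cutting of peptide bonds inside proteins with a bound metal ion. Its 54 members, all past the gene and spread to 965 kb from the start, were weak, with a median of 0.566, 0.510 and 0.564 RPM and a strongest member of 1.44 ± 0.348 RPM. The 89 members of evm.TU.ctg1227.2, also all past the gene, had a median of 1.30, 1.30 and 1.26 RPM, and the strongest, at 175374 to 176687 and 528 kb from the start, had 26.2, 17.1 and 20.1 RPM. For evm.TU.ctg1737.1, 5 of 51 members reached 10 RPM. The 60 members of evm.TU.ctg49.7, which lie upstream of a gene of 1251 bp, had a median of 1.39 ± 0.0453 RPM, and the 51 of evm.TU.ctg1033.5 had 1.93 ± 0.176 RPM (SD, n = 3).

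**Figure D5:**
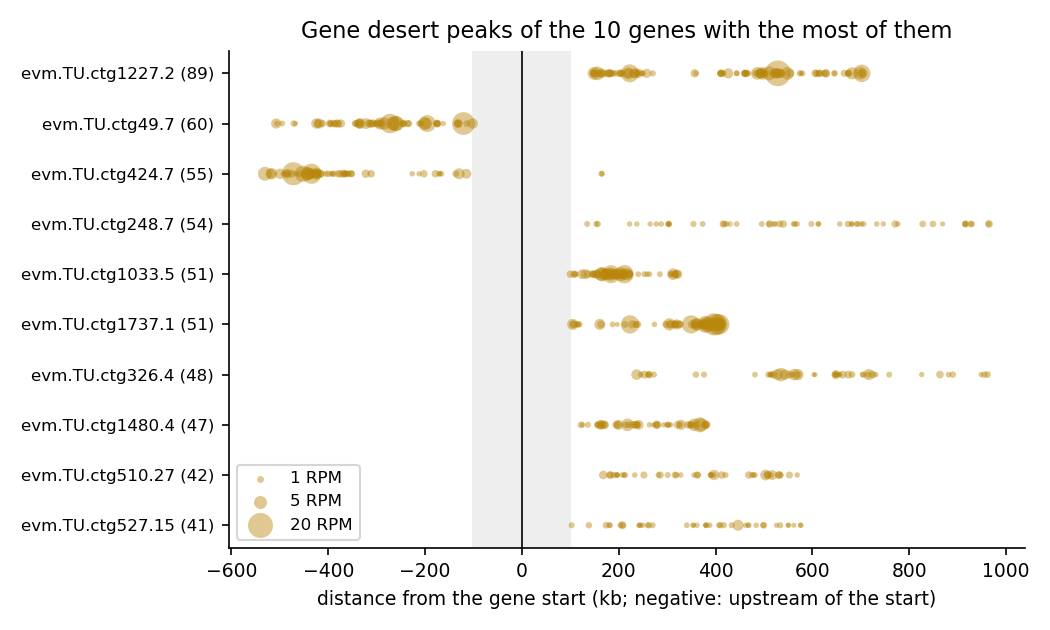
Gene desert peaks of the 10 genes with the most of them (number in brackets), by distance from the gene start in kb, with the area of a circle set by the mean signal in RPM. The 100 kb on either side of the start are shaded and hold no member, the peaks of evm.TU.ctg248.7 reach 1.44 RPM, at 965 kb, and those of evm.TU.ctg1227.2 reach 21.2 RPM.

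Of the 21 genes that the study names, 8 were nearest to at least 1 member, against 2636 of all 12002 listed genes. Listed genes with a member were longer, with a median of 58.0 kb against 36.3 kb for those without. Whether the named genes have members more often than other genes of similar length was not tested. These samples were among those used in the study to select the named genes. The gene annotated as the EGF receptor, a growth factor receptor with tyrosine kinase activity, is evm.TU.ctg470.4 and had 3 members at 100 to 116 kb upstream, and the strongest, 105 kb away, had 5.68, 3.46 and 4.14 RPM. The candidate G-protein-coupled receptor evm.TU.ctg71.25 had 12 members, at 114 to 273 kb upstream, with a median of 0.641, 0.703 and 0.831 RPM and a maximum of 1.16 ± 0.123 RPM. The Wnt receptor gene Frizzled-10 (evm.TU.ctg321.8) had 3 members and evm.TU.ctg485.29, of the adhesion family of these receptors, had 2, with strongest means of 0.731 ± 0.0961 and 0.896 ± 0.109 RPM (SD, n = 3). The remaining candidates evm.TU.ctg42.32, evm.TU.ctg1716.2 and evm.TU.ctg25.48 had 6, 7 and 1, and the small GTPase gene evm.TU.ctg470.6 had 1 of 0.456 ± 0.105 RPM (SD, n = 3).

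Most members were above the reads expected outside peaks, as most listed peaks were. Peaks are called for an excess of reads, and these libraries may be among those used. A high share was therefore set in advance for every class of peaks. Each count was set against the read density outside peaks with a one-sided Poisson test in each library (Benjamini-Hochberg 0.05 over all peaks), where a member of median width would hold 9.53, 10.3 and 14.9 background reads in replicates 1, 2 and 3. Members above background in all 3 replicates numbered 13453, or 86.4% (exact 95% interval 85.90 to 86.98), against 90.2% of all merged peaks. The share was 88.1% at contig ends and 84.7% between genes. In single replicates 90.6%, 94.7% and 97.4% of members passed, against 93.7%, 95.9% and 98.3% of all peaks, and the share was highest in replicate 3, the deepest library. Against 92.7%, 95.4% and 98.1% at 20 to 100 kb, the difference was -2.13, -0.693 and -0.691 percentage points, a mean of -1.17 ± 0.829 (SD, n = 3, exact sign-flip permutation p = 0.25), in the same direction in each library. It was -0.692 points without replicate 1, -3.57 with a background density 2 times higher and -1.90 with counts halved. Just 79 members (0.508%) passed in no replicate, against 0.32% of all peaks. The calls depend on the assumed density. With a density 2 times higher 44.9% of members passed in all 3, against 51.6% of all peaks. At a threshold of 0.01 it was 78.5%, against 83.4% of all peaks, and without 1 replicate it was 87.4% to 93.0% of members, against 90.9% to 94.8% of all peaks. The library totals were near 2 times the study's read counts after duplicate removal, which is what counting both mates of each pair would give. Mates are not independent. With all counts divided by 2 the share was 75.1%, against 80.4% of all peaks, and these values are the better guide.

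The libraries ranked members by signal alike. Pearson's r of log2 signal across members was 0.878, 0.897 and 0.904 for replicates 1 and 2, 1 and 3, and 2 and 3, and Spearman's coefficient was 0.815, 0.840 and 0.844, across peaks that are not independent. For all other peaks Pearson's r was 0.876, 0.892 and 0.900. Signal was not scaled to width here, and the libraries share the width of each peak. How much of the correlation comes from width was not tested. The SD of log2 signal over the replicates had a median of 0.267 for members and 0.266 at 20 to 100 kb. Replicate 1 was low at the typical member. Of all members, 44.1% exceeded in replicate 1 the geometric mean of replicates 2 and 3. The share was 47.1% at 20 to 100 kb and 50.5% over all peaks. The median ratio was 0.953 for members and 0.978 at 20 to 100 kb. At the 1147 members with at least 2 RPM in each library the ratio was 1.02. It was 1.04 at the 1377 members with at least 100 reads in each, a floor that asks for more RPM in replicate 1, the shallowest library. Peaks at 20 to 100 kb had ratios of 1.05 and 1.08 with these 2 floors. The least even of the 1377 were at 1680442 to 1681008 of ctg185 with 3.39, 1.88 and 1.56 RPM, at 1702959 to 1703840 of ctg363 with 3.89, 2.11 and 1.87 RPM, and at 91177 to 92185 of ctg1239 with 3.70, 1.83 and 3.48 RPM. Replicate 1 was the highest library at each of these, as it was at 47.9% of the 1377.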

How the data were processed

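ATAC-seq was run on 3 libraries of the ArR_30min group. For mapping, the authors used BWA and the *A. franciscana* assembly ASM3288406v1. Duplicates, mitochondrial reads and poorly mapped reads had been removed before MACS2 peak calling, and ChIPseeker gave the nearest gene. Reads are lost where the 2 genomes diverge. The authors deposited raw counts of reads for each merged peak. The deposited RPM values equal the count plus 1 over a library total (largest deviation 0.0005%), from which the totals were recovered. The sources do not state which samples' peaks were merged, and peaks from other time points may be among them, so a listed peak need not have been called in this group. All coordinates are the table's, on that assembly.

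Peak classes, medians, Poisson calls and two-sided exact sign-flip tests over libraries were computed with Python 3.11.15, pandas 2.3.3, numpy 2.4.6 and SciPy 1.17.1, and the Poisson calls were tested on simulated data. Class differences were taken within each library on log2(RPM + 0.0691). The background density was the reads outside peaks over 1583 Mb, the contig extents up to the last listed peak or gene end, less the bases in peaks. Exact intervals are over peaks and treat them as independent draws, which neighbouring peaks are not. They hold neither the counting error of reads nor the spread between libraries. The libraries came from 1 batch of cysts, so SDs measure the spread within it. Members and lists were chosen with earlier results of these data known. Named regions were the 10 strongest, 5 farthest, 5 widest and 3 least even members, the 3 on each side of 100 kb, the 5 stretches with the most members and the 5 longest, the 10 genes with the most members, and each gene the study names that is nearest to a member. The 6 extreme stretches and the weakest member were added after their values were seen. Columns of other samples numbered 0.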

Additional observations from a re-analysis of the deposited data

How the results depend on the processing

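The values with peaks at contig ends or between genes alone and the floor of 2 RPM were chosen after seeing the data. The mean of each of the 3 signal comparisons stayed negative under every alternative run, from -0.13 to -0.03 against 20 to 100 kb, from -0.20 to -0.00090 against all other peaks and from -1.52 to -0.50 against start peaks, although libraries differed in direction against all other peaks at contig ends, and against 20 to 100 kb upstream peaks alone gave -0.08, 0.00 and -0.05 (exact permutation p = 0.5), with no difference in replicate 2. Without 1 replicate the values were -0.07 to -0.05, -0.13 to -0.09 and -1.52 to -1.25. Medians of read counts move in whole reads, so some alternatives returned the main value unchanged and add little. Against 20 to 100 kb and against start peaks these were the limits of 150 and 200 kb, at least 10 reads, and more than 10 kb from a gene. The share of reads was 26.0% beyond 50 kb, 7.99% beyond 150 kb, 4.59% beyond 200 kb and 5.52% with genes on both sides, and 13.7% to 14.1% without 1 replicate. Members above background in all replicates made up 44.9% with a density 2 times higher, 75.1% with halved counts, 78.5% at a threshold of 0.01, and 87.4% to 93.0% without 1 replicate, against 51.6%, 80.4%, 83.4% and 90.9% to 94.8% of all peaks. Their difference from peaks at 20 to 100 kb ranged from -3.57 to -0.692 points. Mean agreement was 0.930 with a pseudocount 10 times larger, 0.833 as Spearman's coefficient, 0.988 on linear RPM, 0.872 without the strongest 1% of peaks, and 0.878 to 0.904 without 1 replicate. The log2 ratio of replicate 1 was -0.07, reversed to 0.0608 with at least 100 reads and to 0.0321 with at least 2 RPM in each library, and was -0.15 when scaled to reads in peaks; without replicate 2 or 3 it was -0.10 to -0.04. The cause was not tested. Peak density was 58.9, 56.5 and 54.8 per Mb beyond 50, 150 and 200 kb, 49.8 for peaks above background and 53.8 with genes on both sides. The median gap was 3778 bp among peaks above background. Class differences were paired within libraries, and no comparison between groups of samples was possible because the series has 1 group. With 3 libraries no exact test can pass 0.05, and a gene nearest to no peak is not in the list, so gene-free holds for listed genes only.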

Other observations

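Values follow for 5 nearest genes that the study annotates, which were picked after their values were seen. The gene evm.TU.ctg7.20, annotated with sequence-specific transcription factor activity, had 27 members at 103 to 354 kb from its start, 19 of them upstream, with a median of 0.585, 0.686 and 0.813 RPM in replicates 1, 2 and 3. Its strongest, 351 kb upstream, had 3.01 ± 0.726 RPM (SD, n = 3). The joined model evm.TU.ctg270.21_evm.TU.ctg270.20, annotated with the same activity in the nucleus, had 25 members past the gene with a median of 1.12 ± 0.0771 RPM and a maximum of 7.33 ± 1.05 RPM (SD, n = 3). The cell adhesion gene evm.TU.ctg359.30 had 38 members, all upstream, at 100 to 563 kb. Their median was 0.698, 0.642 and 0.673 RPM, and the strongest, 134 kb away, had 6.85, 8.21 and 7.50 RPM, lowest in replicate 1. The gene evm.TU.ctg206.40, annotated with calcium ion binding at the cell surface, had 28 members upstream with a median of 1.02 ± 0.0327 RPM, and the protein kinase gene evm.TU.ctg12.7 had 21 with a median of 0.843 ± 0.108 RPM (SD, n = 3). The study drew its annotated list partly from these samples, and other annotated genes had similar numbers of members, so these 5 are examples that stand for no group of genes.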
